A study of Mus musculus with 8 samples.

Results

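The 10 genes described here mark the ATF4 stress response and serine synthesis: Atf4, Ddit3, Trib3, Chac1, Sesn2, Asns, Slc7a11, Phgdh, Psat1 and Psph. They were taken by gene symbol from a list chosen with earlier results of these data known, and are 10 of the 38991 genes with an entry. RNA-seq was performed on RGd2 mouse embryonic stem cells (ESCs), a line of strain 129 that carries a destabilised GFP reporter of Rex1 (Zfp42). Cells were derived and grown for 6 passages in 2i, then for 5 more in 1 of 4 media, and RNA was taken at passage 11. All media were serum-free N2B27 on gelatin, and cells were split every 3 days at 15000 cells per cm2. CH is the GSK3 inhibitor CHIR99021 (3 µM), PD is the MEK inhibitor PD0325901 (1 µM) and LIF is a cytokine that acts through STAT3. The media were 2i+LIF (CH, PD and LIF), 2i (CH and PD), LIF+PD and CH+LIF, with 2 cultures each. Each medium other than 2i+LIF thus lacked 1 of the 3 components. Since all cells came from 2i, the 2i cultures kept their medium, LIF was added in 2i+LIF, and LIF+PD and CH+LIF cells gained LIF and lost an inhibitor. Here "without LIF", "without CH" and "without PD" name 2i, LIF+PD and CH+LIF compared with 2i+LIF, and "rose" and "fell" compare media, not times. All 8 cultures came from 1 cell line, and nothing states whether the cultures of a condition were grown apart. The p-values therefore measure the spread between these cultures, which may be technical.

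ATF4 is a bZIP transcription factor whose mRNA is translated more when kinases such as PERK and GCN2 phosphorylate eIF2α, in endoplasmic reticulum (ER) stress or amino acid shortage. With C/EBP partners it binds composite C/EBP-ATF elements in genes for amino acid synthesis, import and stress feedback, so the level of Atf4 mRNA need not follow the activity of the protein. Serine is made from the glycolytic intermediate 3-phosphoglycerate by PHGDH, PSAT1 and PSPH in that order, and feeds glycine, folate-bound carbon units and nucleotides, which mouse ESCs use in quantity.

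Values are FPKM, mapped fragments of a gene scaled by transcript length and library size. Each gene was tested as log2(FPKM + 1) with limma in 1 fit of the 8 cultures, over the 12927 genes that reached FPKM 1 in 2 or more cultures, and "passed" means a Benjamini-Hochberg adjusted p below 0.05 over all of these. All 10 genes entered the test. A log2 difference is on this scale, which understates the change of low genes, and a fold is the ratio of mean FPKM.

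Between 11659 and 12109 genes reached an FPKM of 1 per culture, and estimated relative depth ran from 0.499 in replicate 1 of 2i to 1.18 in replicate 2 of CH+LIF. All 7 naïve pluripotency markers were expressed, with a summed FPKM of 2930 to 3810 per culture. Pou5f1 alone made up 1630 to 2270 of this, and the sum hides differences of single markers between media. Klf4 was at 203 and 196 in 2i+LIF but at 47.7 and 50.6 in 2i, and Nanog was lowest in CH+LIF (305 and 283). Several summed marker levels moved with the media. Primed epiblast markers were lowest in 2i+LIF (41.1 to 44.0, against 87.0 to 120.0 elsewhere). Neural and trophectoderm markers were highest in LIF+PD (19.2 to 19.7 and 61.3 to 72.0) and lowest in CH+LIF (3.3 to 3.9 and 17.6 to 18). Mesoderm markers were highest in CH+LIF (28.6 to 47.7). Fibroblast markers were at 4.0 to 17.1 in CH+LIF, which overlapped with 2i (1.5 to 4.19). Of these, Col3a1 and Dcn were listed at 0 in every culture. Endoderm markers were also highest in LIF+PD (3.76 to 5.27, against 1.87 to 2.94 elsewhere). The part of these markers in the results was not tested, and in bulk RNA fewer cells of a type and less RNA per cell cannot be told apart. The main fit added no rescaling between cultures to the deposited values. Rescaling each culture to the same FPKM sum moved the median of all genes by 0.187 on the log2 scale for CH+LIF against 2i+LIF, by 0.127 for CH+LIF against 2i and by 0.124 for LIF+PD against 2i+LIF. It raised the share of passing genes that were higher from 47.9% to 74.1%, from 44.5% to 64.0% and from 58.6% to 74.9%, respectively. Other rescalings moved the median less. In the same order the shift was -0.0154, 0.0126 and -0.0124 with median-of-ratios factors. It was -0.015, 0.0476 and -0.0555 with TMM factors, and 0.0222, 0.0547 and -0.0361 with quantile normalization.

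The 10 genes did not move as a block. By the moderated F test 9 of 10 differed among the 4 media, all but Ddit3, against 46.8% of all genes tested. The highest mean lay in CH+LIF for 4 genes (Trib3, Phgdh, Psat1 and Psph), in LIF+PD for 4 (Atf4, Ddit3, Chac1 and Slc7a11) and in 2i for 2 (Asns and Sesn2). No gene was highest in 2i+LIF, where 5 of the 10 were lowest. The same shares over all genes tested are not given here. Among the 45 pairs of these genes, Pearson's r of log2(FPKM + 1) over the 8 cultures, which share media in pairs, was positive for 30 and negative for 15, with a median of 0.238. Asns ran against the others, with a negative r in 8 of its 9 pairs.

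**Figure D1:**
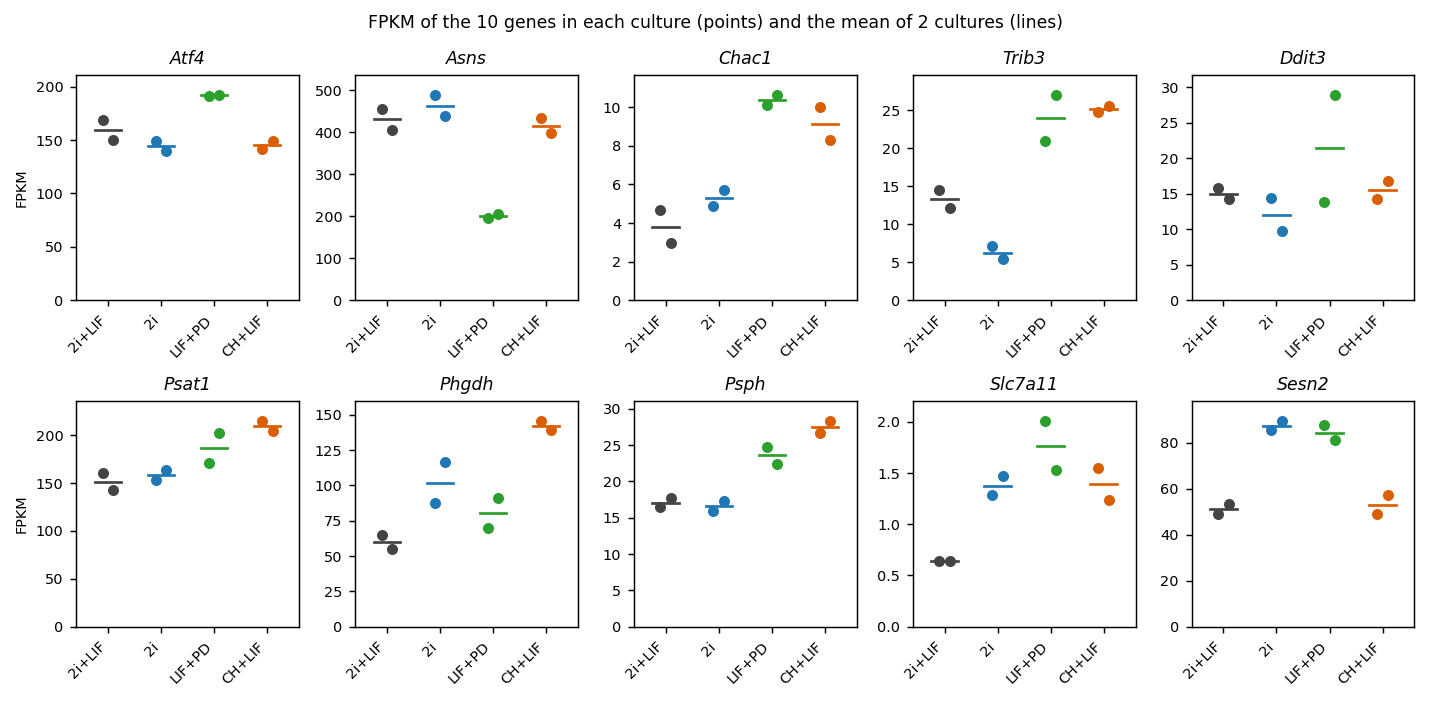
FPKM of each of the 10 genes (vertical axis, linear, from 0) in the 8 cultures, with a point per culture and a line at the mean of the 2 cultures of a medium. Asns is lowest in LIF+PD, Trib3 is lowest in 2i, the serine synthesis genes are highest in CH+LIF, and Sesn2 falls into a higher pair of media (2i and LIF+PD) and a lower pair (2i+LIF and CH+LIF).

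Between 2i and 2i+LIF, which differ by LIF, 3 genes passed, Phgdh and Sesn2 higher and Trib3 lower. Of all genes tested, 18.6% passed in this comparison, 9.77% higher and 8.86% lower. Between LIF+PD and 2i+LIF, which differ by CH, 6 passed, of which Chac1, Trib3, Psph, Slc7a11 and Sesn2 were higher and Asns lower, against 25.2% of all genes (14.8% higher and 10.4% lower). Between CH+LIF and 2i+LIF, which differ by PD, 5 genes passed as higher, Chac1, Trib3, Psat1, Phgdh and Psph, against 25.4% of all genes (12.2% higher and 13.3% lower), and limma found 0 lower, also at an unadjusted p below 0.05. The median log2 difference of the 10 genes was 0.08, 0.42 and 0.50 in these 3 comparisons, against 0.04, 0.03 and 0.01 for all genes tested. The 3 comparisons share the 2i+LIF cultures. Leaving out replicate 2 of 2i+LIF lowered the count from 6 to 3 without CH and from 5 to 3 without PD, leaving out replicate 1 of CH+LIF or its replicate 2 lowered the latter to 2 or 3, and leaving out replicate 1 of 2i+LIF lowered the count without LIF from 3 to 1.

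Between the media that each lack a component, 5 genes passed for LIF+PD against 2i, with Atf4, Chac1, Trib3 and Psph higher and Asns lower (25.1% of all genes passed, 14% higher and 11.1% lower). Another 5 passed for CH+LIF against 2i, with Chac1, Trib3, Psat1 and Psph higher and Sesn2 lower (23.9% of all genes, 10.6% higher and 13.3% lower). For CH+LIF against LIF+PD 4 passed, with Asns and Phgdh higher and Atf4 and Sesn2 lower (30.4% of all genes, 12.6% higher and 17.8% lower). The median differences of the 10 genes were 0.32, 0.38 and -0.05, against -0.0, -0.03 and -0.01 for all genes tested. Leaving out replicate 1 of 2i lowered both counts against 2i from 5 to 3, as did leaving out either LIF+PD culture for the first and either CH+LIF culture for the second. Leaving out replicate 1 of LIF+PD or of CH+LIF lowered the count between those media from 4 to 2.

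**Figure D2:**
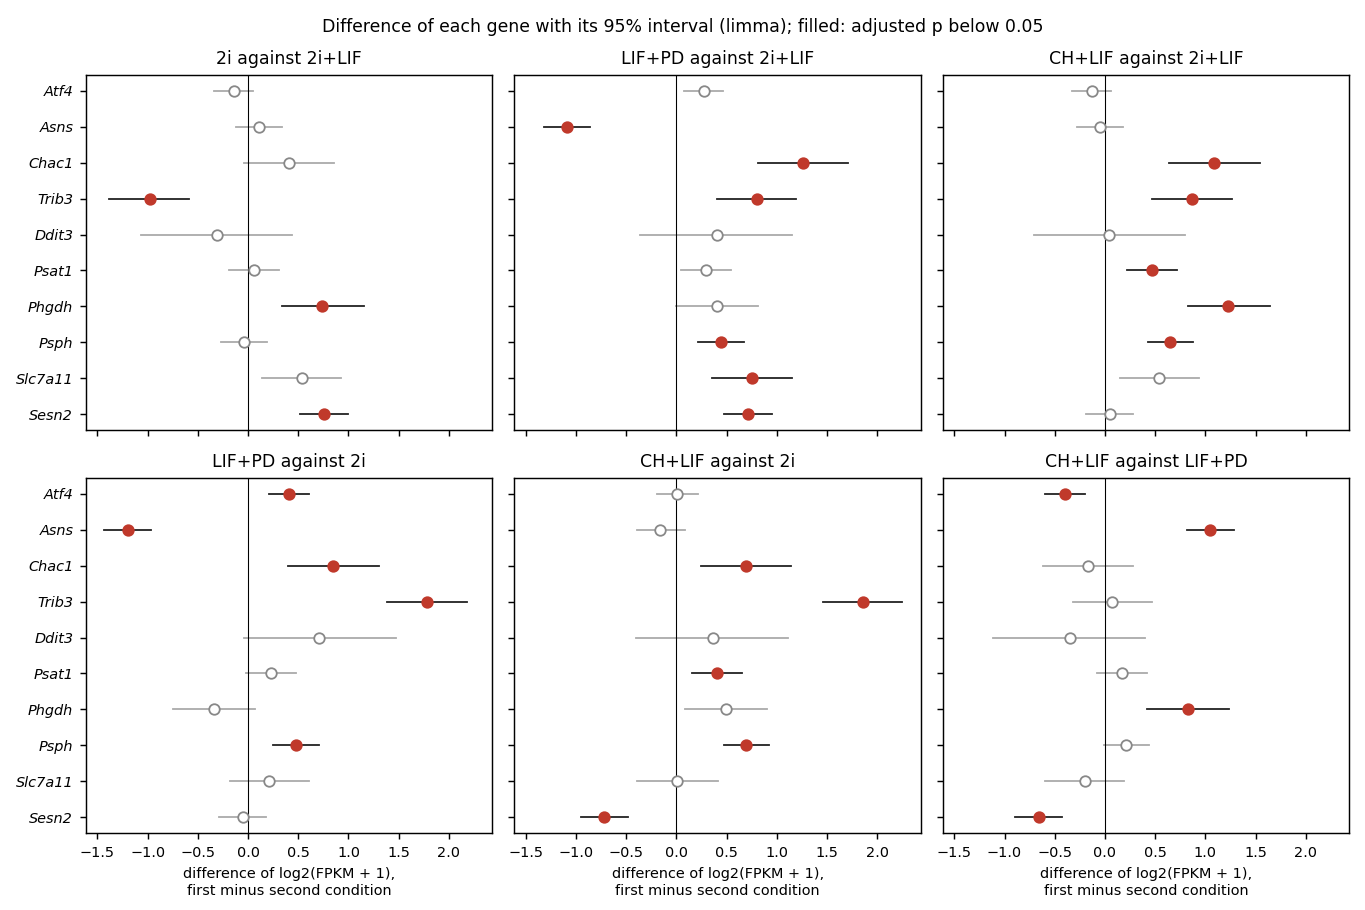
Difference of log2(FPKM + 1) between 2 media (horizontal axis, first minus second) for each gene in the 6 comparisons, with its 95% interval from limma and a filled point where the adjusted p is below 0.05. Asns stands at -1.09 for LIF+PD against 2i+LIF while Chac1 and Trib3 stand at 1.26 and 0.80, and Ddit3 has the widest intervals and passes nowhere.

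Atf4 itself (chr15:80255184-80257540, plus strand, mm10) varied by 1.33-fold between its lowest and highest mean. Its FPKM was 169 and 151 in 2i+LIF, 149 and 139 in 2i, 191 and 192 in LIF+PD, and 141 and 149 in CH+LIF. Each of these values lay above the upper confidence bound deposited with it, such as 168.6 against 158.8 in replicate 1 of 2i+LIF. Both LIF+PD cultures were above the other 6, and those of 2i and CH+LIF overlapped. The mean was 1.33-fold higher in LIF+PD than in 2i (191.7 ± 0.49 against 144.1 ± 6.58, SD, n = 2; log2 difference 0.41 ± 0.08 SE, adjusted p = 0.0125), and lower in CH+LIF than in LIF+PD by a similar amount (log2 difference -0.40, adjusted p = 0.012). Against 2i+LIF the difference of 0.27 for LIF+PD missed the threshold (95% interval 0.07 to 0.46, adjusted p = 0.0583), and with each culture rescaled to the same sum it was 0.40 with an adjusted p of 0.0141. Without replicate 1 or replicate 2 of LIF+PD the adjusted p against 2i was 0.0632 or 0.0661, and without replicate 2 of 2i it was 0.058. For CH+LIF against LIF+PD it was 0.0601, 0.0618 and 0.0698 without replicate 1 or 2 of LIF+PD or replicate 1 of CH+LIF.

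Ddit3 (chr10:127290774-127296288, plus strand) encodes CHOP, a bZIP factor that ATF4 induces and that drives later stress genes. Its FPKM was 15.8 and 14.3 in 2i+LIF, 14.5 and 9.72 in 2i, 13.9 and 28.9 in LIF+PD, and 14.3 and 16.8 in CH+LIF. Replicate 2 of LIF+PD was far above its partner, and the other 7 cultures lay between 9.72 and 16.8. Ddit3 passed in none of the 6 limma comparisons and also in none at an unadjusted p below 0.05, with intervals such as -0.36 to 1.15 for LIF+PD against 2i+LIF (adjusted p = 0.401) that leave a change of over 1 log2 unit possible. Without replicate 1 of LIF+PD, LIF+PD against 2i passed (log2 difference 1.22, adjusted p = 0.0208). Exons of Ddit3 overlap those of Mars on the other strand, whose FPKM was 164 to 222. The study's methods state reverse-strand counting for its read counts, whereas for the FPKM values the use of strand is not stated. If strand was not used, reads of both genes may be mixed, and the Ddit3 level is to that extent uncertain.

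Trib3 and Chac1 are feedback genes downstream of ATF4 and CHOP, and both were highest in the media that hold LIF but lack CH or PD. Trib3 (chr2:152337422-152344032, minus strand) encodes a pseudokinase that binds ATF4 and AKT. Its FPKM was 14.6 and 12.1 in 2i+LIF, 7.13 and 5.41 in 2i, 21.0 and 27.0 in LIF+PD, and 24.8 and 25.5 in CH+LIF. The 2i cultures were the lowest, those of 2i+LIF came next, and LIF+PD and CH+LIF overlapped above them. Trib3 fell without LIF (0.47-fold, log2 difference -0.98 ± 0.17, adjusted p = 0.00811) and rose without CH (1.80-fold, 0.80 ± 0.17, adjusted p = 0.0148) and without PD (1.88-fold, 0.87 ± 0.17, adjusted p = 0.011). The differences of Trib3 from 2i were the largest among the 10 genes, 3.83-fold for LIF+PD (log2 difference 1.78 ± 0.17, adjusted p = 0.000522) and 4.01-fold for CH+LIF (1.86 ± 0.17, adjusted p = 0.000652), and both passed under every alternative run. Against 2i+LIF each call missed the threshold when certain cultures were left out, with differences of the same sign. For 2i the difference was -0.86 (adjusted p = 0.0548) without replicate 1 of 2i+LIF. For LIF+PD it was 0.67 (adjusted p = 0.0829) without replicate 2 of 2i+LIF and 0.62 (adjusted p = 0.0801) without replicate 2 of LIF+PD. For CH+LIF it was 0.75 (adjusted p = 0.0656) without replicate 2 of 2i+LIF, and 0.89 and 0.85 (adjusted p = 0.0541 and 0.0522) without replicate 1 or 2 of CH+LIF.

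Chac1 (chr2:119351229-119354381, plus strand) encodes a glutathione-degrading enzyme. Its FPKM was 4.68 and 2.96 in 2i+LIF, 4.87 and 5.73 in 2i, 10.1 and 10.6 in LIF+PD, and 10 and 8.31 in CH+LIF. The cultures of no pair of media overlapped, in the order LIF+PD, CH+LIF, 2i and 2i+LIF. Chac1 rose 2.71-fold without CH (10.4 ± 0.387 against 3.82 ± 1.22, SD, n = 2; log2 difference 1.26 ± 0.19, adjusted p = 0.00412), a call that held under every alternative run. It rose 2.40-fold without PD (1.09 ± 0.19, adjusted p = 0.00762, or 0.0522 without replicate 1 of CH+LIF). Without LIF the difference of 0.41 did not pass (95% interval -0.04 to 0.86, adjusted p = 0.186). Against 2i it rose 1.95-fold in LIF+PD (adjusted p = 0.0172) and 1.73-fold in CH+LIF (adjusted p = 0.0399). The former had an adjusted p of 0.0841, 0.067 or 0.0839 without replicate 1 of 2i or replicate 1 or 2 of LIF+PD. The latter had one of 0.155 or 0.0712 without replicate 1 or 2 of 2i, 0.0616 or 0.0619 without those of LIF+PD, 0.183 or 0.0763 without those of CH+LIF, and 0.084 with no filter on low values.

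Sesn2 (chr4:132492032-132510501, minus strand) encodes a stress-induced leucine sensor that holds back mTORC1, and it split the media differently. Its FPKM was 49.0 and 53.5 in 2i+LIF, 85.7 and 89.3 in 2i, 87.6 and 81.2 in LIF+PD, and 48.9 and 57.2 in CH+LIF. The 2 media without LIF or without CH formed an upper pair that did not overlap with 2i+LIF and CH+LIF, and the cultures within each pair overlapped. Sesn2 rose 1.71-fold without LIF (87.5 ± 2.57 against 51.3 ± 3.17, SD, n = 2; log2 difference 0.76 ± 0.10, adjusted p = 0.00306) and 1.65-fold without CH (0.71 ± 0.10, adjusted p = 0.00315). Without PD the difference was 0.05 (95% interval -0.19 to 0.28, adjusted p = 0.775). CH+LIF was below 2i by 0.72 and below LIF+PD by 0.66 on the log2 scale (adjusted p = 0.00342 and 0.00321). All 4 of these calls passed under every alternative run.

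Asns (chr6:7675169-7693254, minus strand) encodes asparagine synthetase and is a classical target of amino acid shortage through ATF4, yet it ran opposite to Chac1 and Trib3 in LIF+PD. Its FPKM was 456 and 404 in 2i+LIF, 488 and 438 in 2i, 197 and 204 in LIF+PD, and 434 and 398 in CH+LIF. It had the highest FPKM, a level per transcript length, of the 10 genes in every culture. The LIF+PD cultures stood apart below. The 2i+LIF cultures overlapped with those of 2i and of CH+LIF, and both 2i cultures were above both CH+LIF cultures. Asns fell to 0.466-fold without CH (200.6 ± 5.23 against 430.1 ± 36.2, SD, n = 2; log2 difference -1.09 ± 0.10, adjusted p = 0.000509). LIF+PD was also below 2i (0.433-fold, adjusted p = 0.000307), and CH+LIF was 2.07-fold above LIF+PD (adjusted p = 0.000451). These 3 calls passed under every alternative run. Without LIF or PD the differences of 0.11 (95% interval -0.12 to 0.34) and -0.05 (-0.28 to 0.18) did not pass.

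Slc7a11 (chr3:50364936-50443613, minus strand) encodes xCT, the cystine-glutamate exchanger that supplies cysteine for glutathione. It was the lowest of the 10 genes per transcript length, at an FPKM of 0.640 and 0.638 in 2i+LIF, 1.28 and 1.47 in 2i, 2.01 and 1.53 in LIF+PD, and 1.55 and 1.24 in CH+LIF. The 2i+LIF cultures were below the other 6. The CH+LIF cultures overlapped with those of 2i and of LIF+PD, and both LIF+PD cultures were above both 2i cultures. Slc7a11 rose 2.76-fold without CH (log2 difference 0.75 ± 0.17, adjusted p = 0.0184). Without LIF or PD the means were 2.16-fold and 2.19-fold those of 2i+LIF, with an adjusted p of 0.0685 and 0.0534. Neither passed, but the adjusted p without PD was 0.0422 with a pseudocount of 0.1, 0.0307 after rescaling to the same sum, 0.0439 after quantile normalization and 0.0259 without the mean-variance trend, which also gave 0.0315 without LIF. The call without CH had an adjusted p of 0.082, 0.0791 or 0.113 when replicate 1 or 2 of 2i+LIF or replicate 1 of LIF+PD was left out.

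Of the 10 genes, 4 (Asns, Chac1, Slc7a11 and Trib3) held in their promoters the letters TGATGNAA (or TTNCATCA on the other strand), the core of composite C/EBP-ATF elements, within 250 bases before to 50 bases after the RefSeq start (GRCm38.p6). All 10 genes were matched to a window. Of the 32851 windows of this length for all genes, 3.97% held such a match. The stricter TGATGCAA, a subset of the former, was found for Chac1 and Slc7a11 and in 0.895% of windows. A match is a string of letters, not a bound site. The sequences are shown because these 4 genes differ in how they moved, with Asns lower and the other 3 higher in LIF+PD than in 2i+LIF. They run 5′ to 3′ on the strand of the gene, from 250 bases before the start to 16 bases before it, or for Trib3 to base 22 after it, with the matches in capitals. They lie at chr6:7693225-7693459 (Asns, minus strand), chr2:119350992-119351226 (Chac1, plus strand), chr3:50443629-50443863 (Slc7a11, minus strand) and chr2:152344039-152344310 (Trib3, minus strand).
Asns: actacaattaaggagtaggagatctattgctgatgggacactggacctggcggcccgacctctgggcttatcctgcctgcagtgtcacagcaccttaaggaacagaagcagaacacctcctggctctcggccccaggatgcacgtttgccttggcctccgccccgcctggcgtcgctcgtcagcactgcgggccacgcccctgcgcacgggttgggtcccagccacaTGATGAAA
Chac1: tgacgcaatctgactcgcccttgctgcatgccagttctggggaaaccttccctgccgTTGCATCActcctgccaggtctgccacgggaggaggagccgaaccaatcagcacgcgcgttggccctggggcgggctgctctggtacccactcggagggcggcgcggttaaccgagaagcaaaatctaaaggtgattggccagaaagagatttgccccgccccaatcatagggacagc
Slc7a11: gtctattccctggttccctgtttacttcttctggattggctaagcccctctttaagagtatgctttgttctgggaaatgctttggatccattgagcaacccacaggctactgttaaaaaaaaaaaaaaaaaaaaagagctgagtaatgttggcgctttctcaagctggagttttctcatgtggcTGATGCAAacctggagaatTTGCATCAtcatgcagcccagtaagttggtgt
Trib3: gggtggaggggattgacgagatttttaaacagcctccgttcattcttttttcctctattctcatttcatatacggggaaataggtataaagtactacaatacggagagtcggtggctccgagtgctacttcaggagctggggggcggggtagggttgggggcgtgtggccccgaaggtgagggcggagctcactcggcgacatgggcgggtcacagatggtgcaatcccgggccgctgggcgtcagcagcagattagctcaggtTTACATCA

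In Asns the match lies from 23 to 16 bases before the start, and in Chac1 from 193 to 186 bases before it on the other strand. Slc7a11 has 2 matches, from 66 to 59 and from 47 to 40 bases before the start, in opposite orientations. The match of Trib3 lies from base 15 to base 22 after the start, on the other strand.

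The 3 enzymes of serine synthesis were each highest in CH+LIF. Phgdh (chr3:98313170-98339990, minus strand), the entry step, had an FPKM of 65.0 and 55.3 in 2i+LIF, 87.5 and 116 in 2i, 69.9 and 90.8 in LIF+PD, and 145 and 139 in CH+LIF. The CH+LIF cultures were the highest and those of 2i+LIF the lowest, with 2i and LIF+PD overlapping between them. Phgdh rose 2.37-fold without PD (142.3 ± 4.49 against 60.2 ± 6.86, SD, n = 2; log2 difference 1.23 ± 0.17, adjusted p = 0.00363), which passed under every alternative run, and 1.70-fold without LIF (0.74 ± 0.17, adjusted p = 0.0262). Without CH the difference of 0.40 did not pass (adjusted p = 0.131). CH+LIF was 1.77-fold above LIF+PD (0.83 ± 0.17, adjusted p = 0.0114) and, at 1.39-fold above 2i, did not pass (adjusted p = 0.0806). The call without LIF had an adjusted p of 0.0617, 0.131 or 0.101 without replicate 1 or 2 of 2i+LIF or replicate 2 of 2i, and 0.0592 with no filter on low values. Leaving out replicate 2 of 2i let CH+LIF against 2i pass (adjusted p = 0.0445), and leaving out replicate 1 of LIF+PD or of CH+LIF ended the call between these media (adjusted p = 0.0644 and 0.0618). A processed pseudogene of Phgdh exists. The study's methods kept uniquely mapped reads for its further analysis. If this also held for the FPKM values, reads that match both equally are not in them, which was not tested.

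Psat1 (chr19:15904678-15947337, minus strand), the transaminase of the middle step, had an FPKM of 160.1 and 143 in 2i+LIF, 153 and 163 in 2i, 171 and 202 in LIF+PD, and 215 and 205 in CH+LIF. The CH+LIF cultures were above all others, LIF+PD came next, and 2i and 2i+LIF overlapped below. Several of these values lay above their deposited upper confidence bound, such as 160.1 against 158.7 in replicate 1 of 2i+LIF. Psat1 rose 1.38-fold without PD (log2 difference 0.47 ± 0.11, adjusted p = 0.0194) and CH+LIF was 1.32-fold above 2i (0.40 ± 0.11, adjusted p = 0.0328). The difference of 0.29 without CH missed the threshold (adjusted p = 0.0839, or 0.0361 after rescaling to the same sum). The first had an adjusted p of 0.105, 0.0988 or 0.0585 without replicate 2 of 2i+LIF or replicate 1 or 2 of CH+LIF, and the second of 0.131, 0.0663, 0.14 or 0.087 without replicate 1 or 2 of 2i or of CH+LIF, 0.0578 with no filter on low values and 0.0587 without the trend.

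Psph (chr5:129765558-129787252, minus strand), the phosphatase of the last step, had an FPKM of 16.5 and 17.7 in 2i+LIF, 16.0 and 17.3 in 2i, 24.7 and 22.4 in LIF+PD, and 26.7 and 28.3 in CH+LIF. The media without PD and without CH lay above 2i and 2i+LIF, which overlapped. Psph rose 1.61-fold without PD (27.5 ± 1.13 against 17.1 ± 0.816, SD, n = 2; log2 difference 0.65 ± 0.10, adjusted p = 0.00425) and 1.38-fold without CH (0.44 ± 0.10, adjusted p = 0.0168). Against 2i it rose 1.65-fold in CH+LIF (adjusted p = 0.00331) and 1.42-fold in LIF+PD (adjusted p = 0.0115). Both CH+LIF calls passed under every alternative run. The call of LIF+PD against 2i+LIF had an adjusted p of 0.0949, 0.0544 or 0.0979 without replicate 1 or 2 of 2i+LIF or replicate 1 of LIF+PD, and that against 2i of 0.0599 or 0.0717 without replicate 1 of 2i or of LIF+PD. Exons of Psph overlap those of Cct6a, a chaperonin subunit, on the other strand. Cct6a had an FPKM of 247 and 249 in 2i+LIF, 256 and 262 in 2i, 301 and 304 in LIF+PD, and 397 and 346 in CH+LIF, and rose without PD by a log2 difference of 0.58 (adjusted p = 0.00425) and without CH by 0.29 (adjusted p = 0.0477). If the FPKM values did not use strand, the levels of both genes cannot be told apart, and the part of Cct6a in the Psph result was not tested.

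The enzymes around serine metabolism, not all of which use serine, moved in both directions. Of 23 genes for glycine, folate and methionine metabolism, 21 were tested. Without PD 4 were higher and 4 lower, without CH 3 were higher and 6 lower, and without LIF 1 was higher and 2 lower, with medians of 0.06, -0.09 and 0.06 against 0.01, 0.03 and 0.04 for all genes. Of all genes tested, 12.2% were higher and 13.3% lower without PD, 14.8% and 10.4% without CH, and 9.77% and 8.86% without LIF. These shares also apply to the lists that follow. Gldc, the decarboxylase of the glycine cleavage system, had an FPKM of 64.7 and 64.0 in 2i+LIF, 61.7 and 67.4 in 2i, 72.3 and 70.8 in LIF+PD, and 155 and 164 in CH+LIF, and rose 2.48-fold without PD (adjusted p = 0.000269). Mthfd2, a mitochondrial folate enzyme and a known ATF4 target, rose 1.70-fold without PD (adjusted p = 0.0046) and 1.33-fold without CH (adjusted p = 0.039). Shmt2, which splits serine into glycine and a folate-bound carbon unit in mitochondria, rose 1.30-fold and 1.26-fold (adjusted p = 0.0266 and 0.0407). Tdh, the threonine dehydrogenase that mouse ESCs express at a high level, had an FPKM of 685 and 621 in 2i+LIF, 665 and 646 in 2i, 328 and 272 in LIF+PD, and 609 and 612 in CH+LIF. Like Asns, Tdh was lowest in LIF+PD, at 0.46-fold of 2i+LIF (adjusted p = 0.000627). Gcat, the next enzyme after TDH, fell in all 3 media, to 0.66-fold without LIF, 0.446-fold without CH and 0.737-fold without PD (adjusted p = 0.00341, 0.000229 and 0.00942). Cbs, which condenses serine with homocysteine, fell to 0.342-fold without CH and 0.395-fold without PD (adjusted p = 0.00882 and 0.016). Without PD the counts were 3 higher and 1 lower, 2 and 2, 2 and 1, or 2 and 2 when replicate 1 or 2 of 2i+LIF or of CH+LIF was left out. The 1 higher without LIF became 0 when any 1 culture was left out. Without CH the counts were 0 higher and 3 lower without replicate 1 of LIF+PD, and the higher count was also 0 without replicate 2 of 2i+LIF or of LIF+PD, 2 without replicate 1 of 2i+LIF and 1 without any 1 of the 2i or CH+LIF cultures. Rescaling to the same sum gave 8 higher and 2 lower without PD.

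**Figure D3:**
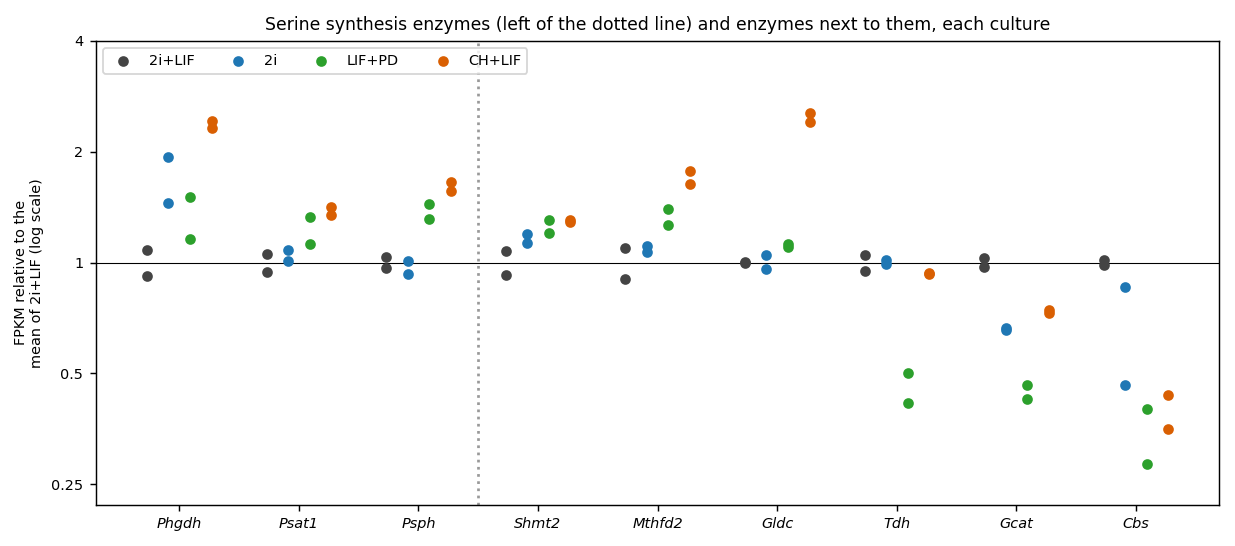
FPKM in each of the 8 cultures divided by the mean of the 2i+LIF cultures (vertical axis, log scale) for the 3 serine synthesis enzymes, left of the dotted line, and 6 enzymes of glycine, folate and sulfur amino acid metabolism. Phgdh, Mthfd2 and Gldc are highest in CH+LIF, and Tdh and Gcat are lowest in LIF+PD.

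Other known ATF4 targets differed in direction between media. Of 20 in the list, 19 were tested and 9 were higher without CH, with 0 lower by limma (1 at an unadjusted p below 0.05) and a median of 0.45. Without PD 2 were higher and 5 lower (median 0.09), and without LIF 2 were higher and 1 lower (median -0.0). After rescaling to the same sum, the counts without PD were 4 higher and 3 lower. Ddit4, an mTORC1 inhibitor, had an FPKM of 9.83 and 10.1 in 2i+LIF, 23.9 and 20 in 2i, 30.8 and 29.3 in LIF+PD, and 6.16 and 6.72 in CH+LIF. It was higher in the same media as Sesn2, rose 2.21-fold without LIF and 3.02-fold without CH, and fell to 0.647-fold without PD (adjusted p = 0.0013, 0.000285 and 0.0129). Pycr1, a proline synthesis enzyme, rose 1.32-fold without CH (adjusted p = 0.0365) and fell to 0.423-fold without PD (adjusted p = 0.000887), opposite to the serine synthesis genes in CH+LIF. Gdf15, a secreted stress factor, showed the same pattern, 1.71-fold without CH (adjusted p = 0.0208) and 0.515-fold without PD (adjusted p = 0.0134). Nupr1, a stress-induced chromatin protein, was at 48.7 and 39.0 in 2i+LIF, 12.2 and 20.1 in 2i, 63.0 and 63.9 in LIF+PD, and 40.8 and 35.7 in CH+LIF, so that it shared with Trib3 the lowest level in 2i (0.368-fold of 2i+LIF, adjusted p = 0.00538). The count of 9 was 4 or 3 when replicate 1 or 2 of 2i+LIF was left out and 4 or 5 for those of LIF+PD, and 7 to 9 over the 4 rescalings. The 5 lower without PD became 1, 2 or 1 without replicate 1 or 2 of 2i+LIF or replicate 1 of CH+LIF.

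The ATF, C/EBP and related bZIP factors followed no common course. Of the 14 tested of 16, 4 were higher and 2 lower without CH, 1 higher and 3 lower without PD, and 1 higher and 2 lower without LIF. Without CH the counts were 2 higher and 1 lower, 3 and 0, 3 and 0, or 2 and 2 when replicate 1 or 2 of 2i+LIF or of LIF+PD was left out, and 5 and 0 after rescaling to the same sum. Without PD they were 0 higher with 2, 1, 1 or 2 lower when replicate 1 or 2 of 2i+LIF or of CH+LIF was left out, and 3 and 3 without either 2i culture. Without LIF 1 was lower when replicate 1 of 2i or replicate 2 of 2i+LIF was left out. Cebpb, the C/EBP factor that shares the composite element, had an FPKM of 1.24 and 1.32 in 2i+LIF, 1.24 and 1.99 in 2i, 6.94 and 6.63 in LIF+PD, and 2.42 and 2.09 in CH+LIF, and rose 5.31-fold without CH (adjusted p = 0.000674). Jdp2, a repressor of the same family, fell to 0.18-fold without LIF and 0.368-fold without PD (adjusted p = 0.00107 and 0.00538). Atf6, a sensor of ER stress, rose 1.95-fold without CH and 1.56-fold without PD (adjusted p = 0.00514 and 0.025). Upstream of ATF4, 12 genes for eIF2 kinases, eIF2, eIF2B and phosphatase cofactors were tested, and the 4 kinases Eif2ak1 to Eif2ak4 passed in none of the 3 comparisons with 2i+LIF. Eif2b5, the catalytic subunit of the eIF2B exchange factor, had an FPKM of 181 and 180.0 in 2i+LIF, 93.7 and 85.8 in 2i, 66.5 and 67.6 in LIF+PD, and 94.2 and 87.4 in CH+LIF. It fell in all 3 media (adjusted p = 0.000391, 9.83e-05 and 0.000594), and it was the 1 gene of this list lower in each. Eif2b2, another subunit, rose 1.51-fold without LIF and 1.43-fold without PD (adjusted p = 0.0182 and 0.0245). The count of higher genes in this list fell from 1 to 0 in the former when replicate 1 of 2i or replicate 2 of 2i+LIF was left out, and in the latter without replicate 2 of 2i+LIF or replicate 1 of CH+LIF.

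Aminoacyl-tRNA synthetases, several of them ATF4 targets, join amino acids to their tRNAs. Of 21 tested, 10 were higher and 1 lower without PD (median 0.33), 4 higher and 1 lower without CH (median 0.10), and 0 higher and 1 lower without LIF by limma (0 and 3 at an unadjusted p below 0.05, median -0.04). Vars and Lars, for valine and leucine, rose 1.58-fold and 1.44-fold without PD (adjusted p = 0.00527 and 0.00439). Qars, for glutamine, was the gene that fell in all 3 media, to 0.679-fold, 0.552-fold and 0.76-fold without LIF, CH and PD (adjusted p = 0.00451, 0.000617 and 0.0138). The 10 became 2, 2 or 5 when replicate 2 of 2i+LIF or replicate 1 or 2 of CH+LIF was left out, and 16 after rescaling to the same sum. The 4 became 1, 0, 2 or 0 when replicate 1 or 2 of 2i+LIF or of LIF+PD was left out, and 7 after rescaling.

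Amino acid transporters that passed were nearly all higher outside 2i+LIF. Of 21 listed, 18 were tested, and 9 were higher and 1 lower without LIF (median 0.62), 8 higher and 0 lower without CH (median 0.62) and 6 higher and 0 lower without PD (median 0.26). Both counts of 0 by limma were also 0 at an unadjusted p below 0.05. Slc1a4, a carrier of serine, alanine and cysteine, had an FPKM of 0.995 and 1.15 in 2i+LIF, 9.19 and 9.65 in 2i, 5.91 and 6.79 in LIF+PD, and 5.49 and 5.12 in CH+LIF, and rose 8.78-fold, 5.92-fold and 4.95-fold (adjusted p = 9.99e-05, 0.000223 and 0.000582). Slc7a7, a light chain for cationic amino acids, rose 8.58-fold without LIF and 9.95-fold without PD (adjusted p = 0.00177 and 0.00146). Slc1a1, a glutamate, aspartate and cysteine carrier, was at 7.06 and 8.80 in LIF+PD and at 0.423 to 1.16 in the other 6 cultures (6.94-fold of 2i+LIF, adjusted p = 0.000923). Slc38a2, the neutral amino acid carrier SNAT2, rose 1.63-fold without LIF and 2.33-fold without CH (adjusted p = 0.0117 and 0.000908). The 9 became 5 when either 2i+LIF culture was left out. The 8 became 5 or 3 without replicate 1 or 2 of 2i+LIF and 4 or 3 without those of LIF+PD, and the 6 stayed between 4 and 7.

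Genes of protein folding in the ER, which ATF6 and XBP1 rather than ATF4 mainly induce, gave counts that depended on single cultures. Of 19 tested, 8 were higher without CH (median 0.21), 1 without PD (median -0.04) and 1 without LIF (median 0.01), and 0 were lower in any of them by limma (1 at an unadjusted p below 0.05, without LIF). The differences were small. Manf and Dnajb9 rose 1.43-fold and 1.45-fold without CH (adjusted p = 0.0384 and 0.0265), Hyou1 rose 1.31-fold without PD (adjusted p = 0.0118) and Pdia6 rose 1.41-fold without LIF (adjusted p = 0.00878). CH+LIF was below LIF+PD for 8 of the 19, and higher for 0 by limma, also at an unadjusted p below 0.05. Of all genes tested, 17.8% were lower and 12.6% higher in CH+LIF than in LIF+PD. The 8 without CH became 1 or 0 when replicate 1 or 2 of 2i+LIF was left out, 4 or 0 for those of LIF+PD and 4 for either of CH+LIF, and 4 to 9 over the 4 rescalings. The 8 below LIF+PD became 2 or 3 without replicate 1 or 2 of CH+LIF, 2 without replicate 2 of LIF+PD, and 3 after rescaling to the same sum.

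**Figure D4:**
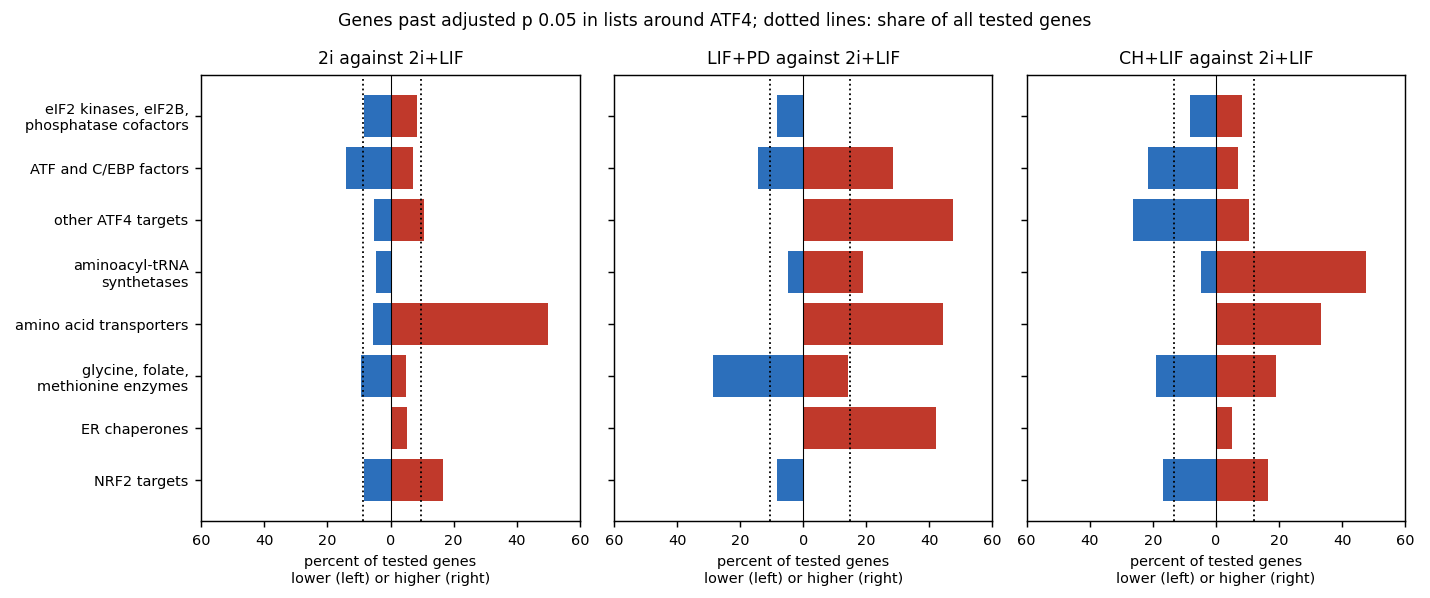
Share of the tested genes of 8 lists (horizontal axis, percent) that passed an adjusted p of 0.05 and were higher (red, right) or lower (blue, left) than in 2i+LIF, without LIF, CH or PD. Dotted lines give the share of all genes tested in each direction. Amino acid transporters exceed the line in the higher direction in all 3 panels, other ATF4 targets and ER chaperones in LIF+PD, and aminoacyl-tRNA synthetases in CH+LIF. Other lists also exceed a line. Among them are ATF and C/EBP factors (higher) and glycine, folate and methionine enzymes (lower) in LIF+PD, and other ATF4 targets (lower) in CH+LIF.

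The genes of most similar pattern were sought for Atf4, Asns and Psat1 by Pearson's r of log2(FPKM + 1) over the 8 cultures among all genes tested. For Asns they were Actg1 (cytoplasmic γ-actin, r = 0.994), Gemin4 (0.990) and Tor1aip2 (0.990). Actg1 was at an FPKM of 496 and 475 in 2i+LIF, 556 and 523 in 2i, 223 and 217 in LIF+PD, and 463 and 433 in CH+LIF. For Atf4 they were Pole4 (0.983), Grm2 (0.982) and Gm17251 (0.979), of which Grm2 was at 0.172 to 1.33 FPKM. For Psat1 they were Med8 (0.978), Mthfd2 (0.974) and Pabpn1 (0.973), so that Mthfd2, of the folate list, ranked second among all genes tested. Among the 10 genes themselves, the highest r were those of Chac1 with Psat1 (0.863) and Psat1 with Psph (0.848), and the lowest was that of Atf4 with Asns (-0.869).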

How the data were processed

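RNA-seq was performed on 8 cultures of RGd2 mouse ESCs. The authors aligned single-end reads to mm10 with TopHat2 and Ensembl annotation and kept uniquely mapped reads, and the deposited values are FPKM per gene and culture, with Cufflinks and Cuffdiff named in the submitters' processing notes. The study's methods name rRNA depletion, whereas the sample records name polyA RNA. Read counts were not used here, depth is known only relative to replicate 1 of 2i+LIF, and whether strand was used for FPKM is not given in the sources used here. Of 80 values of the 10 genes, 14 lay outside their own deposited bounds, so the bounds served as no error. They were every value of Atf4, several of Psat1 and 1 of Ddit3 (replicate 2 of LIF+PD).

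Entries of 22 repeated identifiers were summed. log2(FPKM + 1) was fitted with limma 3.58.1 (R 4.3.3, mean-variance trend) over 12927 genes with all 4 media in 1 fit (4 residual degrees of freedom), with 6 comparisons and an F test and Benjamini-Hochberg adjustment over all genes. The script was tested on simulated data. The 10 genes and the 10 further gene lists, 7 genes of which stand in 2 lists, were chosen with earlier results of these data known. From these lists the text names paralogues and eIF2 genes, and per comparison at most the 2 highest and 2 lowest passing genes with a mean FPKM of at least 5 in 1 group and no overlap of cultures. Promoters are from RefSeq. Python 3.11.15 and matplotlib 3.10.9 drew the figures. Alternatives were other pseudocounts (0.1 and 5), filters (none, FPKM 5), scalings (equal sums, median of ratios, quantile, TMM), a replicate block, no trend, only the 2 media compared, and leaving out each culture.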

Additional observations from a re-analysis of the deposited data

How the results depend on the processing

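With 2 cultures per medium, leaving out 1 culture was the choice that changed calls most; its lone partner is then assumed to vary like the other media. The number of the 10 genes that passed ranged from 1 to 3 for 2i against 2i+LIF, 3 to 6 for LIF+PD against 2i+LIF, 2 to 5 for CH+LIF against 2i+LIF, 3 to 5 for LIF+PD against 2i, 3 to 5 for CH+LIF against 2i, 2 to 4 for CH+LIF against LIF+PD and 7 to 9 for the F test. These ranges cover only the fits that left out 1 culture. With no filter on low values CH+LIF against 2i had 3 passing genes in place of 5. Other settings added calls. Rescaling to the same sum added Atf4 and Psat1 for LIF+PD against 2i+LIF (adjusted p = 0.0141 and 0.0361 by limma). It also added Slc7a11 for CH+LIF against 2i+LIF (adjusted p = 0.0307). Without the trend Slc7a11 also passed for 2i against 2i+LIF (adjusted p = 0.0315). No difference that passed changed sign in the 19 settings, and of the 28 calls in the 6 comparisons 13 passed in every setting and 25 in every setting that kept all cultures.

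The replicate block left the counts at 3, 6, 5, 5, 5, 4 and 9 in the same order and changed no call of the 10 genes. Deviations of same-numbered cultures correlated at -0.0283 to 0.0925 over 12927 genes, so the numbers were not taken to pair cultures. Slc7a11 was not tested with the filter at FPKM 5, and the F test was not run on 2 media. Over all genes, leaving out 1 culture lowered the passing genes from 2408 to as few as 1152 for 2i against 2i+LIF, from 3263 to 1661 for LIF+PD against 2i+LIF, from 3286 to 1506 for CH+LIF against 2i+LIF, from 3242 to 1873 for LIF+PD against 2i, from 3089 to 1478 for CH+LIF against 2i and from 3928 to 2262 for CH+LIF against LIF+PD. Low levels such as that of Slc7a11, at an FPKM of 0.638 to 2.01, are limited by depth, and read counts were not used here.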

Other observations

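The relatives of the 10 genes followed them in part. Of 7 paralogues, 6 were tested, with 2 higher and 0 lower without LIF and without CH by limma (0 lower also at an unadjusted p below 0.05), and 1 higher and 1 lower without PD. Trib1, a pseudokinase related to Trib3, had an FPKM of 3.66 and 3.83 in 2i+LIF, 9.40 and 10.1 in 2i, 7.72 and 5.89 in LIF+PD, and 7.58 and 8.25 in CH+LIF. It rose in all 3 media (2.61-fold, 1.82-fold and 2.11-fold for 2i, LIF+PD and CH+LIF, adjusted p = 0.00211, 0.0122 and 0.00527), and 2i, the lowest medium for Trib3, was the highest for Trib1. Both other sestrins were, like Sesn2, lower in CH+LIF than in 2i and in LIF+PD. Sesn1 was at 0.503-fold and 0.663-fold (adjusted p = 0.00729 and 0.0384), and Sesn3 at 0.48-fold and 0.57-fold (adjusted p = 0.0201 and 0.0412). Unlike the Sesn2 calls, these depended on single cultures. Leaving out any 1 culture of CH+LIF ended both calls against LIF+PD and at least 1 of those against 2i. Against 2i+LIF, Sesn1 fell to 0.571-fold in CH+LIF (adjusted p = 0.0151) and did not pass in 2i or LIF+PD (adjusted p = 0.48 and 0.381), and Sesn3 did not pass in 2i, LIF+PD or CH+LIF (adjusted p = 0.0797, 0.199 and 0.336). The 1 lower without PD became 0 when any culture of 2i+LIF or CH+LIF was left out, and the 2 higher without CH became 1 without replicate 1 or 2 of 2i+LIF or replicate 1 of LIF+PD.

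Genes of amino acid sensing upstream of mTORC1, where SESN2 acts, were counted beside the shares of all genes tested. Those shares were 9.77% higher and 8.86% lower without LIF, 14.8% and 10.4% without CH, and 12.2% and 13.3% without PD. Of 18 listed, 16 were tested. Without CH 0 passed by limma (1 higher and 2 lower at an unadjusted p below 0.05, and 2 higher after rescaling to the same sum), without LIF 2 were higher and without PD 2 were higher and 1 lower. The 2 without LIF became 1 when either 2i culture or replicate 1 of 2i+LIF was left out. Without PD 0 passed by limma when replicate 2 of 2i+LIF or replicate 1 of CH+LIF was left out, and 1 was higher and 0 lower without replicate 1 of 2i+LIF or replicate 2 of CH+LIF. Rragb, a Rag GTPase, had an FPKM of 14.2 and 12.9 in 2i+LIF, 24.8 and 27.0 in 2i, 16.8 and 17.0 in LIF+PD, and 19.1 and 18.2 in CH+LIF. NRF2 targets, which share the supply of cysteine and glutathione with Slc7a11, gave 2 higher and 1 lower of 12 tested without LIF, 0 higher and 1 lower without CH (1 and 3 at an unadjusted p below 0.05) and 2 higher and 2 lower without PD. These became 1 and 1 without PD when any culture of 2i+LIF or CH+LIF was left out, and the 2 higher without LIF became 1 without any 1 of the 2i+LIF, 2i or CH+LIF cultures. Txnrd1, thioredoxin reductase, rose 1.41-fold without LIF and 1.55-fold without PD (adjusted p = 0.0042 and 0.00163), and Gclm, a subunit of glutathione synthesis, rose 1.36-fold and 1.41-fold (adjusted p = 0.0416 and 0.0229). Me1, malic enzyme, fell to between 0.43-fold and 0.49-fold in all 3 media.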
